A study of Danio rerio with 7 samples.

Results

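The 71 most abundant transcripts of cells sorted from gfap:GFP zebrafish brains were described in 7 RNA-seq libraries. They were selected on the deposited TPM values, as the transcripts with a mean over the 7 libraries of 1000 TPM or more, and make up 0.139% of the 51033 transcripts listed. TPM (transcripts per 1000000) is a level per unit of transcript length, scaled to the same total in each library. The libraries form 2 groups: 4 of bright cells (GFP high, replicates 1 to 4) and 3 of dim cells (GFP low, replicates 3 to 5). Both groups came from untreated transgenic fish aged 3 months, in which a gfap:GFP reporter puts green fluorescent protein into ependymoglia, and brightness in the sorter separated them. How many fish went into a library is not given in the sources used here. Replicates were not stated to be separate animals, so p-values speak only to how far these libraries scatter, and that scatter may be technical.

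Ependymoglia resemble the radial glia of the mammalian embryo. They keep contact with the ventricles of the fish brain, support neurons and act as neural stem cells in the adult. The gene gfap encodes glial fibrillary acidic protein, an intermediate filament of astroglia, and reporters driven by its regulatory region label these cells. The most abundant transcripts of a cell usually come from a small number of genes for protein synthesis, energy metabolism, the cytoskeleton and the products the cell type is specialised for.

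The deposited files name transcripts by Ensembl identifier only, and none of these identifiers was matched to a gene symbol in the tables used here (0 matches). The 71 transcripts are therefore called by their rank, where rank 1 has the highest mean TPM, and by their length in bases. No sequence, gene function or cell type marker is given for them, and the labelled cell type was not checked against markers. Total estimated counts per library ran from 20076316 to 25545771 in GFP high and from 10629958 to 21796218 in GFP low. All 71 transcripts had counts in every library, and their lowest count in any library was 111. Depth therefore did not limit their detection.

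The 71 transcripts were chosen by mean TPM, so their levels are given as a description without a test. In the mean over the 7 libraries, levels fell steeply after rank 1. That fall came from GFP low, where rank 1 averaged 154386 TPM, against 3526 TPM and place 22 in GFP high. The rank 1 transcript had a mean of 68180.4 TPM over the 7 libraries, rank 2 had 14096 TPM, rank 10 had 4721 TPM and rank 71 had 1002 TPM. Ranks 11 to 30 lay between 2173 and 4411 TPM, ranks 31 to 50 between 1392 and 2153 TPM, and ranks 51 to 71 between 1002 and 1381 TPM. Of the 71, 8 lay less than 10% above the threshold and 11 further transcripts lay less than 10% below it.

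**Figure D1:**
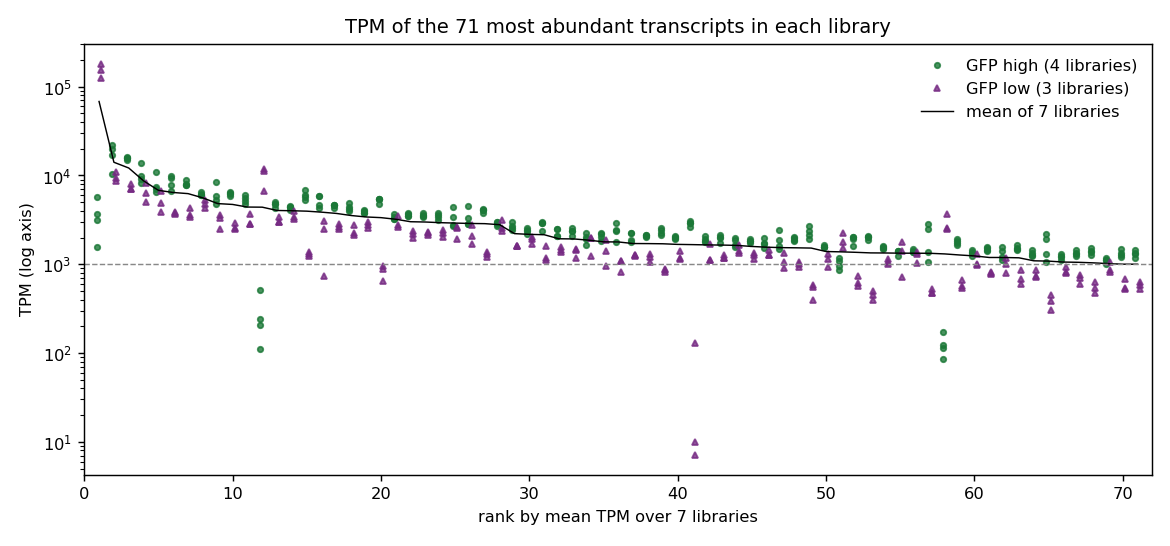
Deposited TPM on a log axis against rank by mean TPM, with 1 green circle for each of the 4 GFP high libraries, 1 purple triangle for each of the 3 GFP low libraries, a line for the mean of the 7, and a dashed line at 1000 TPM. At most ranks the circles lie a little above the triangles, while at ranks 1, 12 and 58 the triangles lie far above and at rank 41 they reach down to 7.07 TPM.

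Just inside the threshold, rank 70 (723 bases) had 1205, 1260.3, 1327 and 1475 TPM in GFP high replicates 1 to 4, against 529, 676 and 546 TPM in GFP low replicates 3 to 5. Rank 71 (1703 bases) had 1308, 1338, 1187 and 1438 TPM in GFP high, against 582, 533 and 627 TPM in GFP low. Both were at 1000 TPM or more in all 4 bright libraries and in none of the dim ones. Just outside it, rank 72 (1502 bases) had 1152, 1191, 1117 and 1325 TPM in GFP high, against 709, 660.4 and 745 TPM in GFP low. Rank 73 (966 bases) had 945, 1274, 1051 and 944 TPM in GFP high, against 809, 871 and 785 TPM in GFP low. In CPM, the groups did not overlap at rank 72 and overlapped at rank 73, which was not called (log2 fold change 0.40; adjusted p = 0.125 by edgeR).

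The 71 transcripts held 23.8% ± 0.626 of all TPM in the 4 GFP high libraries and 29.8% ± 3.54 in the 3 GFP low libraries (mean ± SD). The makeup of these shares differed. Rank 1 alone held 0.353% ± 0.171 in GFP high, against 15.4% ± 2.86 in GFP low. Ranks 2 to 10 held 8.65% ± 0.757 in GFP high and 4.70% ± 0.563 in GFP low, and ranks 11 to 71 held 14.8% ± 0.33 in GFP high and 9.61% ± 0.21 in GFP low. Without rank 1, and with TPM rescaled to the same total, the other 70 held 23.6% ± 0.598 in GFP high and 17.0% ± 1.38 in GFP low. In estimated counts, which are not divided by length, the 71 held 20.1% ± 0.354 in GFP high and 19.5% ± 2.80 in GFP low.

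**Figure D2:**
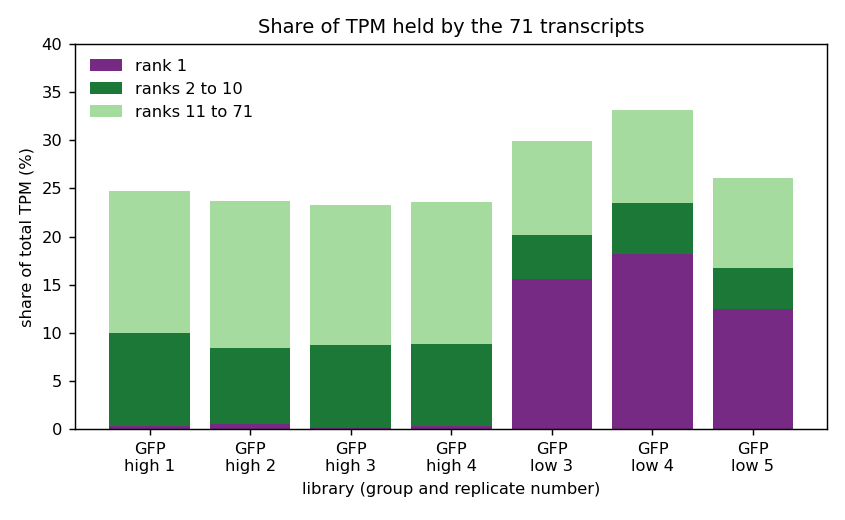
Share of total TPM in percent, stacked by rank band, in the 4 GFP high libraries (left) and the 3 GFP low libraries (right). Rank 1 takes 0.157% to 0.571% in the GFP high libraries and 12.5% to 18.2% in the GFP low libraries, while ranks 2 to 10 and 11 to 71 take less in each GFP low library than in any GFP high library.

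Ranked by group mean, 39 of the 71 stood within 10 places of each other in the 2 groups, and 14 stood more than 50 places apart. Of ranks 1 to 10, 9 were among the 10 highest of GFP high and 8 among the 10 highest of GFP low. The lists of the 71 highest transcripts by group mean shared 52 entries, 73.2% of each list. In single libraries, 68 or 69 of the 71 reached 1000 TPM in GFP high and 48 to 52 did in GFP low. The same values chose the 71, so this contrast follows in part from the choice. Over all transcripts listed, 83 to 89 reached 1000 TPM in single GFP high libraries and 54 to 64 in GFP low. In all 7 libraries together, 41 of the 71 were at 1000 TPM or more.

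Many of the 71 differed between bright and dim cells, and nearly all of those that did were higher in the bright cells. By edgeR's quasi-likelihood test across all 33178 transcripts tested, with Benjamini-Hochberg adjustment and a false discovery rate of 5%, 50 of the 71 passed towards GFP high (70.4%) and 4 towards GFP low (5.63%). Over all transcripts tested, 21.8% passed, 10.2% towards GFP high and 11.6% towards GFP low. The other 17 did not pass, and all 17 had a positive log2 fold change (GFP high minus GFP low, on TMM-scaled counts). The median log2 fold change was 0.75 for the 71 and 0.0051 for all transcripts tested. For 20 of the 71 only the GFP high mean reached 1000 TPM, and for 2 only the GFP low mean. Part of these results follows from that choice. Of the other 49, 31 passed towards GFP high and 2 towards GFP low, with a median log2 fold change of 0.65. It was already 0.56 among the 129 transcripts with a mean of 500 to 1000 TPM, of which 79 passed towards GFP high and 8 towards GFP low. The tilt towards GFP high was thus present below the threshold too. That class was cut on the same mean, which takes in more GFP high than GFP low libraries. Its tilt may therefore follow in part from that choice, and is no separate sign of a link between abundance and direction. The part of abundance in the result was not tested. Less RNA per cell and fewer cells with the transcript cannot be told apart in pooled cells.

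**Figure D3:**
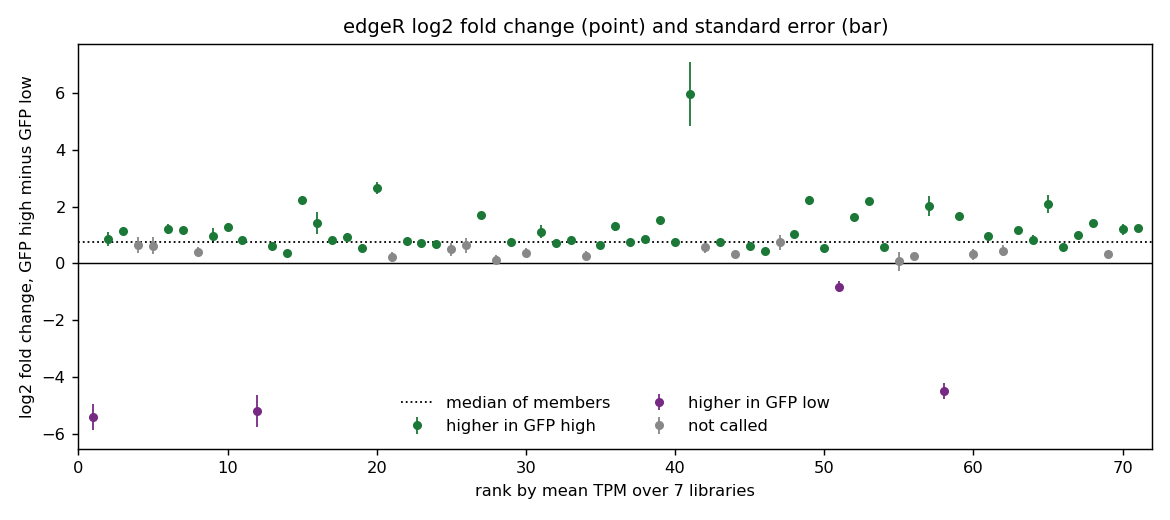
Log2 fold change, GFP high minus GFP low, with its standard error as a bar, against rank by mean TPM. Green points passed the 5% false discovery rate towards GFP high (50), purple points towards GFP low (4), and grey points did not pass (17); the dotted line is the median of the 71, at 0.75.

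Most of these differences were moderate. Of the 50 transcripts higher in GFP high, 24 were at least 2-fold higher and 7 at least 4-fold higher, and the median log2 fold change was 0.97. Of the 4 higher in GFP low, 3 were at least 4-fold higher. Over all transcripts tested, calls of at least 2-fold made up 5.68% towards GFP high and 8.56% towards GFP low. The groups did not overlap in TMM-scaled CPM (counts per 1000000) for 56 of the 71, with all 4 GFP high libraries above in 52 and all 3 GFP low libraries above in 4. Over all transcripts tested, 35.2% were without overlap, 17.2% with GFP high above and 18.0% with GFP low above.

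Part of these calls, of the large folds and of the absence of overlap follows from how the transcripts were chosen. For 20 of the 71 the GFP high mean reached 1000 TPM and the GFP low mean did not, and for 2 it was the reverse. A transcript of this kind owes its place to the group where it is high. The mean was taken over 4 GFP high and 3 GFP low libraries, so the choice favours transcripts high in GFP high. The uneven group sizes thus add to the imbalance between 20 and 2. With the mean of the 2 group means in its place, 69 were chosen, where 4 of the 71 left and 2 others joined. Of the 20, 19 passed towards GFP high, and both of the 2 passed towards GFP low. For the remaining 49, both group means reached 1000 TPM. Of these, 31 passed towards GFP high, 2 towards GFP low and 16 in neither direction, with a median log2 fold change of 0.65. The groups did not overlap in CPM for 34 of the 49, and for all of the 20 and both of the 2.

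The highest transcript of the dim cells was much lower in the bright cells. Rank 1, ENSDART00000171617.1 (890 bases), had 3661, 5707, 1572 and 3165 TPM in GFP high replicates 1 to 4, against 155748, 182264 and 125147 TPM in GFP low replicates 3 to 5. Every dim library was far above every bright library. It ranked 22 by the GFP high mean and 1 by the GFP low mean. Its log2 fold change was -5.42 ± 0.46 (SE), 42.9-fold higher in GFP low, with adjusted p = 0.000227 by edgeR.

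A second transcript of similar length followed the same pattern at a lower level. Rank 12, ENSDART00000014098.10 (865 bases, its identifier shown after its values were seen), had 239, 510.4, 109.7 and 209 TPM in GFP high, against 11330, 11780 and 6608 TPM in GFP low. It ranked 509 by the GFP high mean and 2 by the GFP low mean, so that only the dim cells put it among the 71. Its log2 fold change was -5.19 ± 0.56 (SE), 36.5-fold higher in GFP low, with adjusted p = 0.000609 by edgeR. Rank 58 (1521 bases) had 125, 171, 84.9 and 114 TPM in GFP high, against 3647, 2530.0 and 2486 TPM in GFP low. It was 22.5-fold higher in GFP low, at a log2 fold change of -4.49 (SE 0.28; adjusted p = 7.93e-05 by edgeR). Like rank 12, it was among the 71 only through the dim cells.

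These 3 transcripts varied alike among the bright libraries. Relative to its GFP low mean in CPM, rank 1 stood at 2.36%, 3.84%, 0.994% and 2.14% in GFP high replicates 1 to 4. Rank 12 stood at 2.39%, 5.33%, 1.08% and 2.18%, and rank 58 at 4.39%, 6.29%, 2.94% and 4.18%. In all 3, replicate 2 was highest, replicates 1 and 4 followed in that order, and replicate 3 was lowest, an order of TPM shown by 4 of the 71 transcripts. This likeness was noticed after the values were seen and was not tested.

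The remaining transcript higher in GFP low differed much less. Rank 51 (2459 bases) had 858, 1172, 1088 and 967 TPM in GFP high, against 2239, 1803 and 1536 TPM in GFP low. The groups did not overlap, and in both the mean was over 1000 TPM. Its log2 fold change was -0.82 ± 0.18 (SE), 1.76-fold higher in GFP low, with adjusted p = 0.014 by edgeR. Without GFP low replicate 3 the log2 fold change was -0.68 and the adjusted p by edgeR 0.0549, so that it did not pass without that library.

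**Figure D4:**
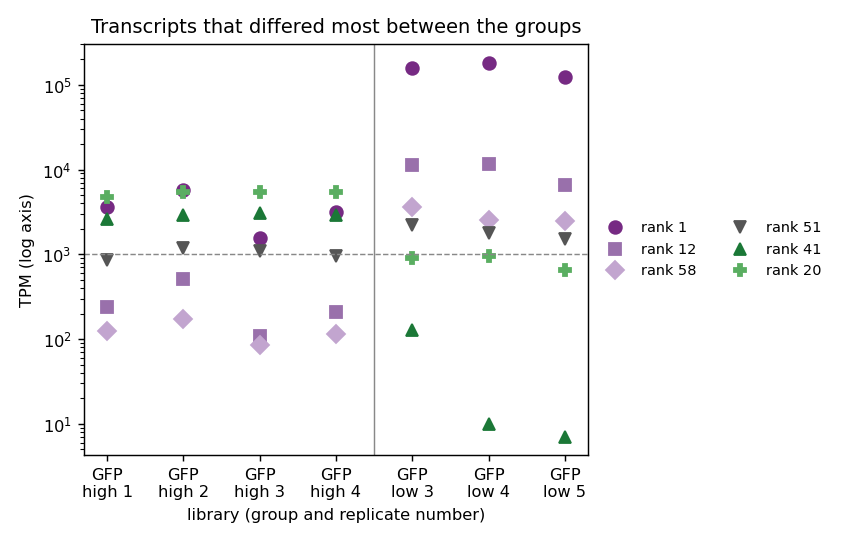
TPM on a log axis in each GFP high library (left of the line) and GFP low library (right of it) for the 4 transcripts higher in GFP low (ranks 1, 12, 58 and 51) and for ranks 41 and 20, which were higher in GFP high; the dashed line is 1000 TPM. Ranks 1, 12 and 58 share their order among the GFP high libraries, and rank 41 lies at 129 TPM in GFP low replicate 3 and at 9.89 and 7.07 TPM in replicates 4 and 5.

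The largest difference towards the bright cells was at rank 41. This transcript, ENSDART00000139096.1 (2261 bases), had 2620.4, 2895, 3112 and 2883 TPM in GFP high, against 129, 9.89 and 7.07 TPM in GFP low. The 4 bright libraries were close to each other, and of the dim libraries replicate 3 stood well above the other 2. Its rank was 27 by the GFP high mean and 3014 by the GFP low mean. The log2 fold change was 5.97 ± 1.11 (SE), 62.6-fold higher in GFP high, with adjusted p = 0.00718 by edgeR. Relative to the GFP high mean in CPM, it stood at 4.24%, 0.379% and 0.209% in GFP low replicates 3 to 5, and without replicate 3 the log2 fold change was 8.40. It was 5.50 without GFP low replicate 4 and 5.45 without replicate 5. The call held in 18 of 19 alternatives of the test. It was lost with the replicate number as a block (adjusted p = 0.0713 by edgeR).

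Differences of at least 4-fold towards GFP high were also found at ranks 20, 15, 49 and 53. Rank 20 (710 bases) had 4792, 5387, 5412 and 5377 TPM in GFP high, against 893, 958 and 651 TPM in GFP low. It was 6.35-fold higher in GFP high, at a log2 fold change of 2.67 (SE 0.22; adjusted p = 0.000169 by edgeR). Its level in the bright cells put it at place 12 there, against place 73 in the dim cells. Rank 15 (400 bases) had 6044, 5234, 5720.2 and 6862 TPM in GFP high, against 1240.3, 1295 and 1361 TPM in GFP low, and was 4.67-fold higher in GFP high (adjusted p = 7.43e-05 by edgeR). It is the second shortest of the 71 and had a mean over 1000 TPM in both groups.

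Ranks 49 and 53 were the other 2 of the 5 transcripts with the largest difference towards GFP high. Rank 49 (2319 bases) had 2357, 1904, 2154 and 2697 TPM in GFP high, against 558, 396 and 591 TPM in GFP low, with a log2 fold change of 2.22 ± 0.15 (SE). Rank 53 (584 bases) had 2023, 2094, 2051 and 1886 TPM in GFP high, against 503, 396 and 452 TPM in GFP low. Its log2 fold change was 2.20 ± 0.11 (SE), and its adjusted p of 4.48e-05 by edgeR was the lowest of the 50. In none of the transcripts at ranks 41, 20, 15, 49 and 53 did a dim library reach the level of a bright one. These 5 were picked for the size of their difference, which favours such an absence of overlap.

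Ranks 57 and 65, the remaining transcripts at least 4-fold higher in GFP high, were uneven within the bright group. Rank 57 (693 bases) had 1063, 2875, 2518 and 1379 TPM in GFP high, against 524, 476 and 472 TPM in GFP low. Rank 65 (866 bases) had 1064, 2185, 1916 and 1292 TPM in GFP high, against 384, 448 and 309 TPM in GFP low. Replicates 2 and 3 were high and replicates 1 and 4 low for both. Their order from highest to lowest TPM, replicates 2, 3, 4 and 1, was shown by 9 of the 71, more than any other order. The coefficient of variation in GFP high was 44.6% for rank 57 and 32.5% for rank 65, where the median of the 71 was 7.80%. Both still passed the test, with log2 fold changes of 2.04 ± 0.36 and 2.10 ± 0.32 (SE) and adjusted p = 0.00541 and 0.00265 by edgeR. They were picked out for this pattern after the values were seen. In both, only the GFP high mean reached 1000 TPM, so the bright cells alone put them among the 71 and their folds follow in part from that choice.

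The highest transcript of the bright cells was rank 2. ENSDART00000031650.7 (2302 bases) had 21857, 10302, 20081.0 and 17201 TPM in GFP high, against 9446, 11017 and 8769 TPM in GFP low. GFP high replicate 2 lay within the range of the dim libraries, so the groups overlapped. The log2 fold change of 0.86 ± 0.26 (SE) passed narrowly, with adjusted p = 0.0469 by edgeR. It no longer passed without any of 5 of the 7 libraries (all but GFP high replicate 2 and GFP low replicate 4), where the adjusted p by edgeR was 0.0931 to 0.137. The call was also lost with library size alone as the scaling (adjusted p = 0.0596 by edgeR) and with the replicate number as a block (adjusted p = 0.076 by edgeR). It held in 12 of 19 alternatives.

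Ranks 3, 6, 7 and 10 were higher in the bright cells without overlap and at similar folds. Rank 3 (2358 bases) had 15009.5, 15804, 16249 and 15852 TPM in GFP high, against 7041, 8072 and 7004 TPM in GFP low. Rank 6 (2046 bases) had 6658, 7746, 9435 and 9897 TPM in GFP high, against 3664, 3775 and 3871 TPM in GFP low. In rank 6 the spread lay on the bright side, and in rank 3 both groups were tight in TPM. In TMM-scaled CPM, the scale of the fold changes, rank 3 was less even in GFP low, at 8882, 11852 and 7935 in replicates 3 to 5. Rank 7 (1699 bases) had 7829, 8827, 8022 and 7834 TPM in GFP high, against 3546, 3435 and 4252 TPM in GFP low. Rank 10 (2302 bases) had 5897, 6400.1, 6543 and 6223 TPM in GFP high, against 2588, 2923 and 2471 TPM in GFP low. The log2 fold changes were 1.13 ± 0.14, 1.21 ± 0.16, 1.18 ± 0.10 and 1.28 ± 0.15 (SE) for ranks 3, 6, 7 and 10, with adjusted p between 0.000168 and 0.00135 by edgeR.

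Among ranks 1 to 10, 3 transcripts did not pass the test. Rank 4, ENSDART00000093609.3 (691 bases), had 13900.1, 9969, 8234 and 9061 TPM in GFP high, against 6392, 8311 and 5083 TPM in GFP low. Rank 5, ENSDART00000093613.3 (786 bases), had 11031, 7501, 6458 and 7077 TPM in GFP high, against 4962, 6720 and 3899 TPM in GFP low. In both, GFP high replicate 1 stood highest of all, and GFP low replicate 4 lay above the lowest bright library. Their log2 fold changes were 0.65 ± 0.27 and 0.63 ± 0.29 (SE), with adjusted p = 0.134 and 0.163 by edgeR. Rank 8 (1789 bases) had 6198, 6086, 5987 and 6572 TPM in GFP high, against 4723, 5324 and 4264 TPM in GFP low, at a log2 fold change of 0.42 (SE 0.16; adjusted p = 0.0934 by edgeR).

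Ranks 21 and 25 complete the 5 most abundant transcripts that did not pass. Rank 21 (677 bases) had 3449, 3261, 3262 and 3664 TPM in GFP high, against 2752, 3482 and 2630.0 TPM in GFP low. Rank 25 (1141 bases) had 4404, 3388, 2748 and 2701 TPM in GFP high, against 2557, 2660.1 and 1919 TPM in GFP low. At rank 21, 1 dim library lay within the range of the bright ones, whereas at rank 25 all 3 lay below them in TPM. The adjusted p by edgeR was 0.427 for rank 21 and 0.171 for rank 25.

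The 17 transcripts that did not pass cannot be taken as equal in both populations. Their log2 fold changes ran from 0.069 to 0.74, and 5 had an adjusted p under 0.1 by edgeR. The smallest difference was at rank 55 (1942 bases), with 1256, 1394, 1397 and 1396 TPM in GFP high and 1416, 1762 and 719 TPM in GFP low, where the dim libraries spread on both sides of the bright ones. GFP low replicate 4 was the highest dim library in 13 of the 17, in 27 of the 71 and in 29.9% of transcripts at 100 to 1000 TPM. Without it, 12 of the 17 passed by edgeR, and the count higher in GFP high was 62 in place of 50. The median log2 fold change of the 71 was then 0.94. Over all transcripts tested, 6649 then passed in place of 7223, with 3509 towards GFP high in place of 3372. Leaving out a dim library that is high raises the fold change, so the choice of library favoured these gained calls.

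Of the 71, 6 carried identifiers within a span of 20 consecutive numbers and varied together among the libraries; this set was picked after its values were seen. They are ranks 4, 5, 9, 25, 26 and 47, of 165 to 1551 bases, and the files list 11 transcripts in that span. The other 5 listed had mean levels of 323 to 932 TPM. In all 6, GFP high replicate 1 was the highest bright library and GFP low replicate 4 the highest dim one, and GFP low replicate 5 was the lowest dim one. Among all 71, 14 were highest in GFP high replicate 1. Of the dim libraries, replicate 4 was highest in 27 of the 71 and replicate 5 lowest in 26, so the dim part of the pattern was not particular to the 6. Replicate 3 was the lowest bright library in 5 of the 6, and in 25 of the 71, and replicate 4 in the other of the 6.

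Together the 6 held 4.47%, 3.20%, 2.65% and 2.87% of TPM in GFP high replicates 1 to 4, against 2.04%, 2.54% and 1.60% in GFP low replicates 3 to 5. In TPM the groups did not overlap, but they did on both of the other bases tried after the data were seen. With rank 1 left out and TPM rescaled, the 6 held 4.49%, 3.22%, 2.65% and 2.88% in GFP high, against 2.42%, 3.11% and 1.83% in GFP low. In estimated counts they held 1.89%, 1.37%, 1.104% and 1.24% in GFP high, against 0.90%, 1.16% and 0.66% in GFP low. On both bases GFP low replicate 4 was above GFP high replicate 3. Of the 6, rank 9 was called. It had 8389, 5876, 4716 and 5364 TPM in GFP high, against 3325, 3589 and 2516 TPM in GFP low, at a log2 fold change of 0.98 (SE 0.25; adjusted p = 0.0266 by edgeR). The other 5 had log2 fold changes of 0.50 to 0.74 and did not pass. The call at rank 9 was lost without GFP high replicate 2, GFP low replicate 3 or GFP low replicate 5, with adjusted p = 0.0524 to 0.0763 by edgeR. With the replicate number as a block it was lost too (log2 fold change 0.50; adjusted p = 0.0734 by edgeR).

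**Figure D5:**
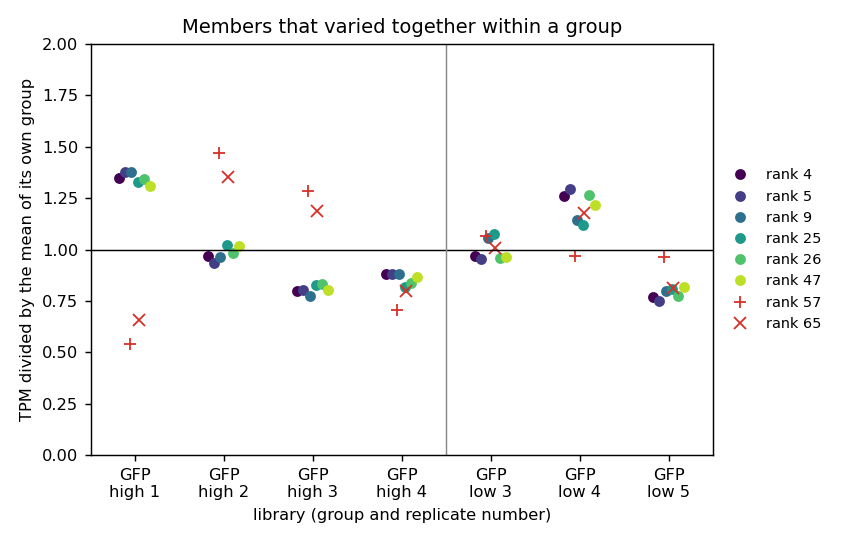
TPM of each transcript divided by the mean of its own group, in the 4 GFP high libraries (left of the line) and the 3 GFP low libraries (right of it). The filled circles are the 6 transcripts with neighbouring identifiers, which lie above 1 in GFP high replicate 1 and GFP low replicate 4; the crosses are ranks 57 and 65, which lie above 1 in GFP high replicates 2 and 3.

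Rank 16 was uneven within the dim group. This transcript of 1954 bases had 5946, 5889, 4615 and 4285 TPM in GFP high, against 2492, 729.9 and 3095 TPM in GFP low, where replicate 4 was far below the other 2. It was called higher in GFP high at a log2 fold change of 1.42 (SE 0.37; adjusted p = 0.0286 by edgeR). The coefficient of variation of TPM in GFP low was 58.4% for rank 16, against a median of 12.1% for the 71. Its call held in 12 of 19 alternatives. It was singled out after its values were seen.

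For most of the 71 the levels were steady between libraries of a group. The coefficient of variation of TPM had a median of 7.80% in GFP high (n = 4) and 12.1% in GFP low (n = 3). Transcripts with a mean of 100 to 1000 TPM had medians of 9.35% and 15.1% in the same groups. It was over 20% for 12 of the 71 in GFP high and for 14 in GFP low. The highest values were 64.2% in GFP high, at rank 12, and 143% in GFP low, at rank 41.

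The 71 transcripts were of short to middling length, a property that entered the choice through the division by effective length. Their median length was 1558 bases, against 1901 bases for all transcripts tested, and 2 of the 71 (2.82%) were over 3000 bases long, against 26.3% of all tested. Under 1000 bases were 18 of the 71 (25.4%), against 22.8% of all tested. The transcripts tested were kept on counts, which are not divided by length, so these contrasts in length follow in part from the 2 ways of choosing. The median log2 fold change was 0.75 for the 18 shorter transcripts and 0.75 for the other 53.

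For many of the 71, reads were shared out between transcripts. Estimated counts under 100000 are deposited with decimals, and a fraction there shows that read pairs were divided among compatible transcripts. Such a fraction, beyond 1e-06, was found in at least 1 library for 45 of the 71 and in all 7 libraries for 22. Of these 45, 35 passed towards GFP high and 3 towards GFP low. In 24 others the counts under 100000 were all whole, and of these 13 passed towards GFP high, 1 towards GFP low and 10 in neither direction. The 6 transcripts with neighbouring identifiers (ranks 4, 5, 9, 25, 26 and 47) are all among the 24, and 5 of them are among the 10. Whether the calls go with the sharing of reads was not tested. For 2 the counts were all too large to show a fraction. Ranks 12, 20, 53 and 58 are among those with fractions, so their levels depend in part on how kallisto divided reads, whereas ranks 41, 57 and 65 had whole counts in every library.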

How the data were processed

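Cells were sorted by GFP brightness, RNA was amplified with a SMART-Seq kit and sequenced as paired reads of 100 bases, per the labels' protocols. The authors deposited estimated counts, TPM, length and effective length per transcript, 1 file a library. The submitters' processing notes name kallisto, sleuth and danRer10; their versions, options and transcript release: not given in the sources used here. TPM values are as deposited.

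The expected (estimated) counts deposited by the authors were rounded and tested with edgeR 4.0.16 in R 4.3.3: TMM scaling, filterByExpr defaults, robust quasi-likelihood F test, Benjamini-Hochberg adjustment over all 33178 transcripts, FDR 0.05, GFP high minus GFP low; all 71 transcripts passed the filter. The script was tested on simulated data. The standard error (SE) was taken from the fold change and F. Alternatives were DESeq2 1.42.0, limma 3.58.1 on log2 TPM with a pseudocount of 1 or 0.1, other scalings, filters, thinning, a replicate block and libraries left out. No library was a copy of another: within groups, chi-square per degree of freedom was at least 19.7.

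The rule and lists were chosen with earlier results of these data known. Values are given in full for ranks 1 to 10, the 5 largest changes towards GFP high, all 4 towards GFP low, the 5 most abundant without a call and the 2 transcripts on each side of the threshold. Gene lists and markers needed symbols and were not analysed here.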

Additional observations from a re-analysis of the deposited data

Results flagged for a closer look

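In GFP high, the TPM of each of the 71 transcripts and 4 shares were searched for a library that stands apart from the other 3, which makes 75 measures. With 3 libraries, GFP low is too small for such a search. Chance alone would mark about 1 in 20, and 5 of 75 were marked. In all 5, replicate 1 was the low library. Rank 17 was at 4275 TPM in GFP high replicate 1 and at 4619 to 4664 TPM in the other 3. Rank 20 was at 4792 TPM there, against 5377 to 5412 TPM in the others. For rank 27 the values were 3826 TPM and 4106 to 4154 TPM, for rank 31 they were 2379 TPM and 2892 to 2994 TPM, and for rank 55 they were 1256 TPM and 1394 to 1397 TPM. Replicate 1 was the lowest GFP high library for 30 of the 71 transcripts (42.3%), and for 41.1% of transcripts with a mean of 100 to 1000 TPM. Its low place is therefore not particular to the 71.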

How the results depend on the processing

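Of the 54 calls among the 71 transcripts, 34 were made in all 19 alternatives of the test and 46 in all but the fit with the replicate number as a block; none of the 54 changed direction in any. The count higher in GFP high was 45 to 56 with all libraries and no block, and 44 to 62 with libraries left out, highest without GFP low replicate 4; the count higher in GFP low was 4, or 3 to 4 with libraries left out. Over all transcripts tested, the count towards GFP high was 2597 to 4397 with all libraries and no block. It was 2311 to 3509 with libraries left out. With library size alone as the scaling, which moved the median log2 fold change of all transcripts to -0.12, that of the 71 was 0.64 and 45 were higher in GFP high. The replicate block kept 35 of the 54 calls, 31 of them higher in GFP high, with 1 residual degree of freedom. Over all transcripts tested, it left 2135 calls in place of 7223, with 860 towards GFP high in place of 3372. Numbers 3 and 4 are the only ones common to the groups. Deviations from the group means correlated at r = 0.0331 for number 3 and 0.0411 for number 4; the labels do not say whether a number pairs libraries, and these values do not settle it.

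The number of transcripts chosen was 200 at 500 TPM, 31 at 2000 TPM, 67 to 73 with libraries left out, and 49 to 79 under the other ways of choosing, including length in place of effective length (70), which was added after the data were seen. Their share of estimated counts was 20.1% in GFP high and 19.5% in GFP low, in place of 23.8% and 29.8% of TPM. Without rank 1 the share of TPM in GFP low was 17.0%. With libraries left out the shares were 23.5% to 24.0% in GFP high and 28.0% to 31.6% in GFP low.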

Other observations

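Transcripts outside the 71 also reached 1000 TPM in single libraries. There were 14 to 21 of them in each GFP high library and 3 to 16 in each GFP low library. Chosen on 6 libraries and looked up in the library left out, 63 to 65 of 67 to 70 transcripts reached 1000 TPM when that library was GFP high, and 48 to 51 of 72 or 73 when it was GFP low. With a GFP low library left out, 4 of the 6 choosing libraries were GFP high, which favours transcripts high there. These counts therefore do not compare how well levels repeat in the 2 groups.

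The level of the shortest transcripts depends on the effective length. Rank 47, of 165 bases, had 350 to 1718 estimated counts per library. Its mean of 1540 TPM became 558 when counts were divided by length in place of effective length, and its rank then was 170. Rank 15, of 400 bases, had 3965 TPM and 2751 by length.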
